A study of Mus musculus with 8 samples.

Results

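Cathepsins are the proteases that break down proteins in endosomes and lysosomes, and cystatins are small proteins that block the cysteine cathepsins. Described here are 8 cathepsin genes (Ctsb, Ctsc, Ctsd, Ctsf, Ctsh, Ctsl, Ctss and Ctsz) and 2 cystatin genes (Cst3 and Cst7), chosen by name and not by their response, out of 56832 rows in the deposited gene table. All 10 passed the filter on low values (a mean of at least 10 normalized counts), as did 14428 genes in all. The RNA came from microglia, the resident macrophages of the brain, sorted by fluorescence from young adult male 5xFAD mice. This line carries transgenes for mutated human APP and presenilin, and plaques of amyloid build up in its brain. Both groups carried the transgenes, and no mice without them are analysed here. The ethanol group had intraperitoneal doses of 3 g/kg as a 20% solution on 5 days of the week for 4 weeks, the control group had saline on that schedule, and a withdrawal of 2 weeks followed in both. Each group had 4 libraries, called saline 1 to 4 and ethanol 1 to 4 after their titles, and the question was whether ethanol changed the microglial transcriptome. The titles do not say that each library was its own mouse. The p-values therefore judge the group difference against the spread between these libraries, which may be technical.

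Cathepsins are made as inactive precursors, carried to the lysosome largely by mannose-6-phosphate receptors and cut to the active form in its acid interior. Most members are cysteine proteases, which cystatins inhibit, whereas cathepsin D is an aspartic protease outside their reach. Cystatin C, encoded by Cst3, is secreted. Cystatin F, encoded by Cst7, is directed to lysosomes, where it acts on cathepsin C among others, and its transcript is known for rising in microglia near amyloid plaques.

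Microglial markers (10 of 10 measured) made up 4.77 to 5.05% of normalized counts in saline and 5.02 to 5.23% in ethanol libraries. Markers of neutrophils, cells that also use cathepsin C, made up at most 0.0934% of a library. Border macrophage markers reached 0.0174%, and markers of astrocytes, oligodendrocytes, neurons, vessels, lymphocytes, monocytes and choroid plexus each stayed lower. Defining markers at 0 in every library included Cd3e, Ncr1, Ccr7, Rgs5, Foxj1 and Kl. The depth was 14271351 to 17231301 assigned reads per library.

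The sequence just upstream of the RefSeq start is shown for the members in which short motifs tied to lysosomal or myeloid gene control were found. The sequences are RefSeq's on build GRCm38.p6, an older build than the one the submitters name for the table. RefSeq promoters were matched for 8 of the 10 members, and the 250 bases before each start were searched on both strands for 4 letter strings that were chosen after the sequences and values were seen. CACGTG is the core of the E-box read by the factors TFEB, TFE3 and MITF, which control lysosomal genes, and it was present in Ctsd, Ctsf and Ctsl and in 6.02% of 32851 mouse promoters of that length. TCACGTG, the longer form found in the lysosomal CLEAR element, contains CACGTG. It was present in Ctsd and in 3.13% of promoters. GAGGAAGT is a core read by the myeloid factor PU.1 and contains the general ETS core GGAAGT. The longer string was present in Ctsc and in 2.44% of promoters, the shorter one in Ctsc and Cst7 and in 19.7%. A match is a description of the letters and was not tested for binding. Whether microglia use these RefSeq starts, that of Ctsl among them, was not tested either. Capitals mark the match in these windows of 30 bases, written 5′ to 3′ on the strand of the gene.
Ctsd, chr7:142387908-142387937, minus strand: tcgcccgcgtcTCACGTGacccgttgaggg
Ctsd, chr7:142388048-142388077, minus strand: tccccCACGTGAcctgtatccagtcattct
Ctsf, chr19:4855074-4855103, plus strand: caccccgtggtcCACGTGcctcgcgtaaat
Ctsl, chr13:64370739-64370768, minus strand: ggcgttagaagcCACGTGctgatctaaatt

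The whole 250 bases are shown for Ctsc and Cst7, the enzyme and the lysosomal inhibitor whose values are set against each other further on. Capitals mark GGAAGT in Cst7 and, in Ctsc, GAGGAAGT as it reads on the opposite strand.
Ctsc, chr7:88277835-88278084, plus strand: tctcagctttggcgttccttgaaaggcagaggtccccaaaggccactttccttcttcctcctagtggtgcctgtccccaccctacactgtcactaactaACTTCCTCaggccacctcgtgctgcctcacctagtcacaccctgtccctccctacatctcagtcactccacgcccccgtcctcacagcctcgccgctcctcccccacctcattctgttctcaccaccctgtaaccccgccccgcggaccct
Cst7, chr2:150570165-150570414, plus strand: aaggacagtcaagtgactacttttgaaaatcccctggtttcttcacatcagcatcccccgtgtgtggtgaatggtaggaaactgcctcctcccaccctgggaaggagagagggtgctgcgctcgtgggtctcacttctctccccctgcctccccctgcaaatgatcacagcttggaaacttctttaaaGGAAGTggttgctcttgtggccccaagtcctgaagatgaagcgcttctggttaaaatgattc

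No member rose or fell past the threshold after ethanol. With limma on log2(normalized count + 1), 0 of the 10 had an adjusted p under 0.05 over all tested genes, beside 0% of the 14428 tested genes. Every member had an adjusted p of 0.997. An unadjusted p under 0.05 was found for 0 of the 10 members, beside 524 of the 14428 tested genes. With 10 members, this count does not set them apart from the other genes. With edgeR, DESeq2 and voom on the recovered reads, 0 members passed either before or after adjustment. The genes with an unadjusted p under 0.05 were 495 of 14428 with edgeR, 546 of 14428 with voom and 777 of 26782 with DESeq2, which was run on more genes. The log2 fold change was positive for 3 members (Ctsb, Ctsc and Ctsd) and negative for 7, with a median of -0.02 beside -0.01 over all tested genes. For every member except Cst7, the 95% intervals of the folds (ethanol over saline) lay between 0.834 and 1.17.

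Ctsd, the gene of the aspartic protease, was among the most abundant transcripts, at place 7 of 50610 genes with a known length by normalized counts per kilobase. It had 113706, 125031, 153669 and 135308 normalized counts in saline 1 to 4 and 120997, 129236, 146005 and 138797 in ethanol 1 to 4. In each group samples 3 and 4 were higher than samples 1 and 2, and the groups overlapped over nearly their whole range. Mean ± SD (n = 4) was 131929 ± 16968 for saline and 133759 ± 10934 for ethanol, a fold of 1.02 (95% interval 0.907 to 1.14).

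Ctss encodes cathepsin S, which cuts the invariant chain during antigen presentation and stays active at neutral pH. Its normalized counts were 111389, 119794, 136805 and 127886 in saline 1 to 4 and 112296, 113432, 115476 and 132362 in ethanol 1 to 4. Within the ethanol group, samples 1 to 3 lay close together and sample 4 stood above them, inside the saline range. The fold was 0.956 (95% interval 0.867 to 1.05), from a mean ± SD (n = 4) of 123968 ± 10890.4 for saline and 118392 ± 9406 for ethanol.

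Ctsb encodes cathepsin B, a cysteine protease that cuts within proteins and also trims their carboxyl ends. In saline 1 to 4 it had 74763, 86265, 93851.5 and 86792.5 normalized counts, and in ethanol 1 to 4 it had 80514, 87071, 86870.0 and 91188. The lowest and the highest library were both saline, so the ethanol values lay inside the saline range. Its fold was 1.01 (95% interval 0.923 to 1.11).

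Ctsz encodes cathepsin X, a protease that removes single residues from the carboxyl end. Its normalized counts were 24202, 26769, 28206.5 and 26072.5 in saline and 23818, 25276, 26436 and 27282 in ethanol libraries, samples 1 to 4 in order. The groups overlapped, with sample 1 the lowest in each. Ethanol over saline was 0.977 (95% interval 0.893 to 1.07).

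Ctsl, for cathepsin L, a broad endopeptidase of the lysosome, had 9271, 10168, 11392 and 9750 normalized counts in saline and 8480, 8870, 10919.5 and 10098 in ethanol libraries, samples 1 to 4 in order. Ethanol 1 and 2 lay below every saline library and ethanol 3 and 4 lay inside the saline range. The fold of 0.943 had a 95% interval of 0.834 to 1.07, the lowest bound among the cathepsins. Its log2 fold change of -0.08 went to -0.15 without ethanol 3 or, in the other direction, to -0.027 without saline 3 or ethanol 1.

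Ctsc encodes cathepsin C, which removes dipeptides from the amino end and activates the serine proteases of neutrophil and lymphocyte granules. Saline 1 to 4 had 11435, 12583, 11903 and 11465 normalized counts, and ethanol 1 to 4 had 12976, 13567, 10674 and 12732. Ethanol 1, 2 and 4 were above every saline library and ethanol 3 was below every one. Over all 8 libraries the fold was 1.05 (95% interval 0.944 to 1.17), the highest among the members. Its log2 fold change was 0.07 over all libraries, 0.14 without ethanol 3 and 0.029 without ethanol 2, with an adjusted p of at least 0.9955 by limma in each. The unadjusted p by limma was 0.0259 without ethanol 3.

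Ctsh encodes cathepsin H, an aminopeptidase. It had 10486, 11097, 12107 and 11185 normalized counts in saline 1 to 4, and 11577, 10470.5, 10965 and 11347 in ethanol 1 to 4. The groups overlapped, and the fold was 0.989 (95% interval 0.903 to 1.08).

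Ctsf, the gene of cathepsin F, another cysteine cathepsin able to cut the invariant chain, was the 1 member of 10 whose groups did not overlap. It had 5687, 5419, 5433 and 5498 normalized counts in saline 1 to 4, and 5311, 5337, 4979 and 5256 in ethanol 1 to 4. The highest ethanol library lay just under the lowest saline library. Groups that do not overlap were found for 2.32% of all tested genes. Mean ± SD (n = 4) was 5509 ± 123 for saline and 5221 ± 165 for ethanol. The fold was 0.948 (95% interval 0.865 to 1.04), with an adjusted p of 0.997 by limma. The limma test shares its estimate of the spread over genes and did not call this difference. The SD of Ctsf, pooled within groups, was 0.040 on the log2 scale, and among the 3450 genes that averaged 1000 normalized counts or more, 0.841% had a smaller one.

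Of the inhibitors, Cst3 was at place 1 of all genes by normalized counts per kilobase, and its normalized counts were 271123, 285643, 355702 and 293413 in saline 1 to 4 and 279567, 264225, 324523 and 324216 in ethanol 1 to 4. In both groups samples 3 and 4 were above every library numbered 1 or 2. Mean ± SD (n = 4) was 301470 ± 37316 for saline and 298133 ± 30936 for ethanol, and the fold was 0.990 (95% interval 0.881 to 1.11).

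Cst7 was the least abundant member, at place 1136 of all genes by normalized counts per kilobase, and the one that varied most between libraries. Its normalized counts were 589, 756, 1314 and 1079 in saline 1 to 4 and 763, 899, 551 and 857 in ethanol 1 to 4. The highest library, saline 3, held 2.39 times the lowest, ethanol 3, and every ethanol library except ethanol 3 lay inside the saline range. For saline the mean ± SD was 934 ± 325 (n = 4), for ethanol 767 ± 155 (n = 4). The fold was 0.846 (95% interval 0.624 to 1.15), with an adjusted p of 0.997 by limma. The interval gives the range of folds compatible with these libraries, and the smallest change that could be detected was not computed.

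**Figure D1:**
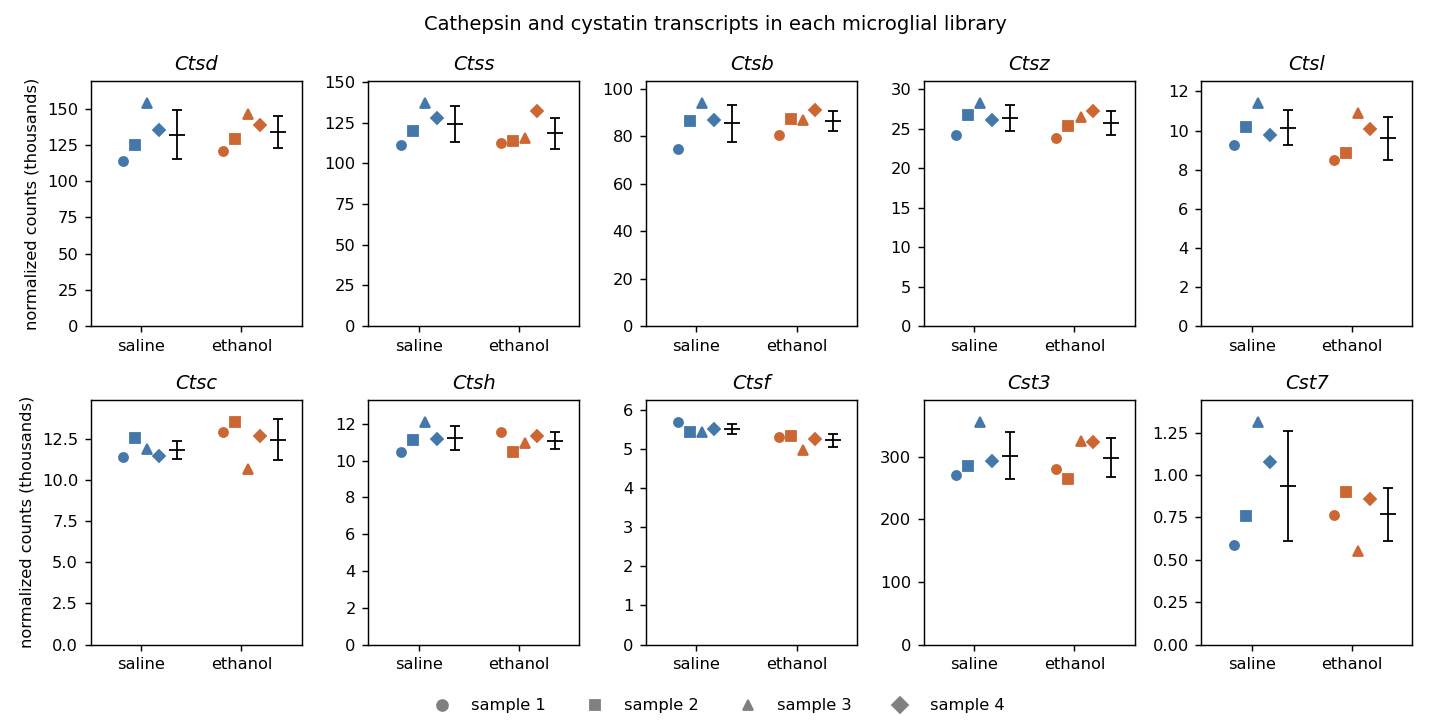
Normalized counts (in units of 1000, axes from 0, a scale per gene) of the 10 members in each saline and ethanol library, with marker shapes for samples 1 to 4 and the group mean ± SD (n = 4) at the right of each group. The groups overlap for all members except Ctsf, and the points of Cst7 are the most spread, from 551 to 1314.

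Single libraries moved the Cst7 difference by more than 1.5 times. Its log2 fold change was -0.24 over all 8 libraries, -0.44 without saline 1, -0.05 without saline 3, -0.15 without saline 4 and -0.09 without ethanol 3. The adjusted p by limma was at least 0.994 in each of these, and the unadjusted p was 0.0338 without saline 1. Within samples 1 and 2 alone, a division made after seeing the data, it was 0.31 (adjusted p = 0.895 by limma). Within samples 3 and 4 alone it was -0.79, with an unadjusted p of 0.00187 and an adjusted p of 0.9997 by limma. The sign thus differed between these sets of libraries, and the difference between them was not tested.

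The spread of Cst7 within groups was large for its abundance. Its pooled SD was 0.43 on the log2 scale, larger than that of 99.5% of the 3604 tested genes that averaged 500 to 1500 normalized counts, whose median SD was 0.16. The other members had pooled SDs of 0.040 (Ctsf) to 0.16 (Cst3). The genes whose log2 values followed those of Cst7 most closely over the 8 libraries, by root mean square difference after centring, were Smim26 at 0.18, Zfp958 at 0.18 and Tpst1 at 0.20. The median of that difference over 9183 genes with a mean of at least 100 was 0.42. This likeness is a description and was not tested. The other members spanned less than 0.5 on the log2 scale, and no like genes were sought for them.

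Saline 3 was the library with the highest value for 8 of the 10 members, all except Ctsc and Ctsf. Over all tested genes this library was the highest for 13.7%, and for 15.4% of the 3450 genes that averaged 1000 normalized counts or more. The members are not independent of each other, and their shared high values in saline 3 was not tested. The lowest value was in saline 1 for 3 members (Ctsb, Ctsd and Ctss), in ethanol 3 for 3 (Ctsc, Ctsf and Cst7), in ethanol 1 for 2 (Ctsl and Ctsz) and in ethanol 2 for 2 (Ctsh and Cst3). Without saline 3 the log2 fold changes were positive for 6 members and negative for 4, and 0 passed the test.

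Together the members made up 4.52 ± 0.402% (SD, n = 4) of a saline library's normalized counts and 4.48 ± 0.297% (SD, n = 4) of an ethanol library's. The share ranged from 4.11% in saline 1 to 5.07% in saline 3. Cst3 alone accounted for 1.69 to 2.22% of a library and the 8 cathepsins for 2.34 to 2.84%.

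**Figure D2:**
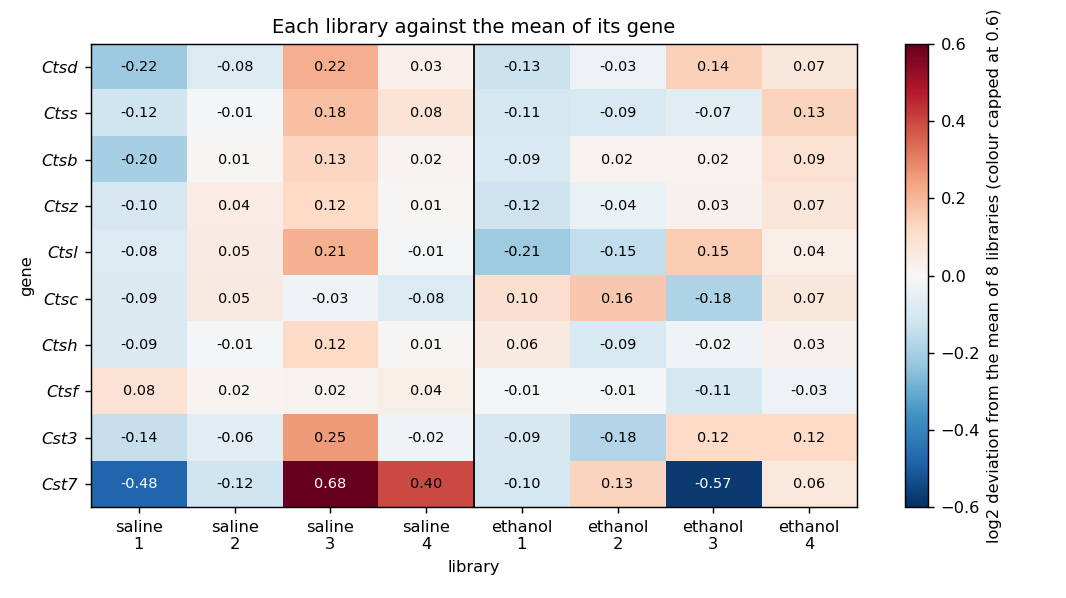
Log2 deviation of each library from its gene's mean over the 8 libraries, with genes in rows, libraries in columns, the value printed in each cell and the colour limited to 0.6 in either direction. Saline 3 is above the mean for 9 of the 10 members and is highest for 8, and Cst7 runs from -0.57 in ethanol 3 to 0.68 in saline 3.

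Samples 3 and 4 of both groups were all above samples 1 and 2 for Cst3 and Ctsd, 2 of the 10 members, beside 4.54% of all tested genes. The same held for 259 of the 3450 genes that averaged 1000 normalized counts or more. Of the related lists, Ctsa, Psap, Gnptg and Ctla2b had this pattern too. The mean of the higher set was 1.18 times that of the lower set for Cst3 and 1.17 times for Ctsd. Over the members the median log2 difference was 0.15, beside -0.01 for all tested genes, and Ctsc (-0.11) and Ctsf (-0.04) had negative differences. For Cst7 that difference was 0.83 in saline and -0.27 in ethanol libraries. Transcripts of the 13 mitochondrially encoded proteins made up 0.865 to 1.04% of counts in samples 1 and 2 and 1.17 to 1.34% in samples 3 and 4. Cytosolic ribosomal protein transcripts made up 1.08 to 1.17% and 1.248 to 1.51%, and saline 3 was the highest library on both measures. The part of these differences in the members' values was not tested.

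Levels were compared between genes only per kilobase of transcript. With the longest annotated transcript of each gene, Cst3 had 348606 normalized counts per kilobase and Ctss had 89432, the highest and second highest of all genes with a known length. Ctsd followed with 62456, Ctsb with 18114 and Ctsz with 18048 per kilobase. Lower levels were found for Ctsh at 4066, Ctsc at 3779, Ctsf at 2563, Ctsl at 1600 and Cst7 at 863 per kilobase. The 8 values of Ctsb and Ctsz overlapped, as did those of Ctsh and Ctsc, while the other neighbours in this order differed in the same direction in all 8 libraries without overlap. Ctsl, Ctsc and Ctsf changed places with the length taken. With the first-numbered transcript of each gene the level of Ctsl was 5007 per kilobase, above Ctsc at 4880 and Ctsf at 2709, and Ctsh was at 6898.

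**Figure D3:**
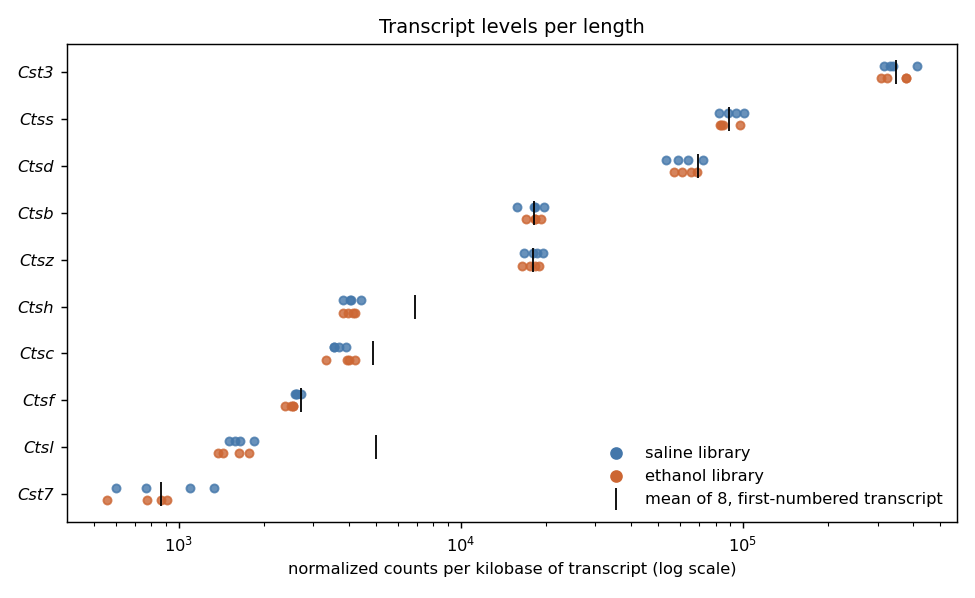
Normalized counts per kilobase of the longest transcript (log axis) in each saline (upper row of points) and ethanol (lower row) library, with a line at the mean of the 8 libraries when the first-numbered transcript is used. Cst3 lies above all cathepsins in every library, and the line moves away from the points for Ctsl, Ctsc and Ctsh.

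The ratios of inhibitor to protease transcripts overlapped between the groups. Per kilobase, Cst3 reached 2.503 ± 0.142 times the summed level of the 7 cysteine cathepsins in the saline group and 2.56 ± 0.204 times in the ethanol group (SD, n = 4). Set against its target Ctsc, Cst7 stood at 16.8, 19.6, 36.1 and 30.7% of the Ctsc level per kilobase in saline 1 to 4 and at 19.2, 21.6, 16.8 and 22.0% in ethanol 1 to 4. Saline 3 and 4 were above all other libraries, and saline 1 was level with the lowest ethanol library. Mean ± SD (n = 4) was 25.8 ± 9.10% for saline and 19.9 ± 2.40% for ethanol, and these ratios depend on the transcript lengths used.

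Among the other cathepsins and their activating protease, 15 of 16 listed genes had a row and 5 passed the filter. Of these 0 were called, 3 had positive and 2 negative log2 fold changes, and the median was 0.09 beside -0.01 for all tested genes. Lgmn, encoding legumain, the asparagine endopeptidase that processes several cathepsins, had a mean ± SD (n = 4) of 70384 ± 5102 for saline and 74667 ± 2127 for ethanol, a fold of 1.06 (95% interval 0.980 to 1.15). The folds were 0.990 (0.908 to 1.08) for Ctsa, a serine carboxypeptidase that protects other lysosomal enzymes, and 0.993 (0.895 to 1.102) for the cysteine cathepsin gene Ctso. Ctsk, the cathepsin of bone-resorbing osteoclasts, had a mean of 5.59 normalized counts and Ctsg, a neutrophil granule protease, 1.54, both under the filter. The 8 mouse genes Ctsj, Ctsq, Ctsr, Ctsm, Cts3, Cts6, Cts7 and Cts8, a family known from the placenta, had no reads in any library.

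Most other cystatins and cathepsin inhibitors were scarce. Of 27 listed genes 25 had a row, 5 passed the filter and 0 were called. Log2 fold changes were positive for 2 and negative for 3, with a median of -0.21 beside -0.01 for all tested genes. That median is the value of Ctla2b, which averaged 33.1 normalized counts and had a standard error of 0.41 on the log2 scale. None of the listed genes reached a mean of 1000 normalized counts. Cstb, encoding cystatin B, the inhibitor of the cytosol, came nearest, at 889.7 ± 156 for saline and 913 ± 188 for ethanol (SD, n = 4), and was named after its value was seen. Per kilobase of the longest transcript, Cstb had 1495 normalized counts, above the member Cst7 at 863. Kng2, a kininogen gene with cystatin domains, also named after the fact, was the 1 gene of the list with an unadjusted p under 0.05, and its adjusted p was 0.997 by limma. It had 24.1 ± 5.65 normalized counts (SD, n = 4) for saline and 10.9 ± 8.48 for ethanol, a fold of 0.382 (95% interval 0.149 to 0.980).

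Genes that deliver enzymes to the lysosome did not pass the test either. Of 14 listed genes 13 were tested and 0 called, with 6 positive and 7 negative log2 fold changes and a median of -0.02. Psap, encoding prosaposin, which is carried with procathepsin D, had a fold of 0.989 (95% interval 0.903 to 1.08). Grn, the gene of progranulin, whose processed granulins support cathepsin D, had a mean ± SD (n = 4) of 23572 ± 870.0 for saline and 22203 ± 993 for ethanol, a fold of 0.942 (0.869 to 1.02). The small mannose-6-phosphate receptor gene M6pr had a fold of 1.08 (0.974 to 1.202), the sorting receptor gene Sort1 one of 1.06 (0.942 to 1.19) and the retromer gene Vps35 one of 1.02 (0.916 to 1.14).

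The controllers of lysosomal genes comprised 12 listed genes, all tested, with 0 called, 4 positive and 8 negative log2 fold changes and a median of -0.04. Tfe3, a factor that reads the E-box core, had a fold of 1.09 (95% interval 0.982 to 1.21). Its binding at the matches shown for Ctsd, Ctsf and Ctsl was not tested. Flcn, encoding folliculin, which restrains Tfe3, had a fold of 0.920 (0.816 to 1.04), and its partner Fnip1 one of 0.879 (0.762 to 1.01). Rragc, a nutrient-sensing GTPase gene, had a fold of 0.959 (0.852 to 1.08) and the lysosomal calcium channel gene Mcoln1 one of 1.04 (0.889 to 1.21). Fnip2, the other folliculin partner, named after its value was seen, was the 1 gene of this list with an unadjusted p under 0.05, and its adjusted p was 0.997 by limma. Its mean ± SD (n = 4) was 986 ± 175 for saline and 776 ± 71.0 for ethanol, a fold of 0.794 (95% interval 0.659 to 0.955).

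Substrates and products of cathepsins were represented by 12 listed genes, of which 7 were tested and 0 were called. All 7 had negative log2 fold changes, with a median of -0.09. Over all tested genes 7382 of 14428 were negative, with a median of -0.01. The 95% interval of the fold contained 1 for each of the 7, and their shared sign was not tested. Apoe, a lipid carrier gene, had a fold of 0.815 (95% interval 0.639 to 1.04). Cd74, the gene of the invariant chain cut by cathepsins S and F, varied from 1208 normalized counts in ethanol 1 to 3987 in ethanol 4 and had a fold of 0.886 (0.588 to 1.34). H2-DMa, which loads peptides on class II molecules, had a fold of 0.940 (0.833 to 1.06). The fold was 0.951 (0.851 to 1.06) for Tlr7, a nucleic acid receptor that endosomal proteases cut to its working form, and 0.9697 (0.856 to 1.099) for App. Whether reads of the human transgene were counted for App was not tested.

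**Figure D4:**
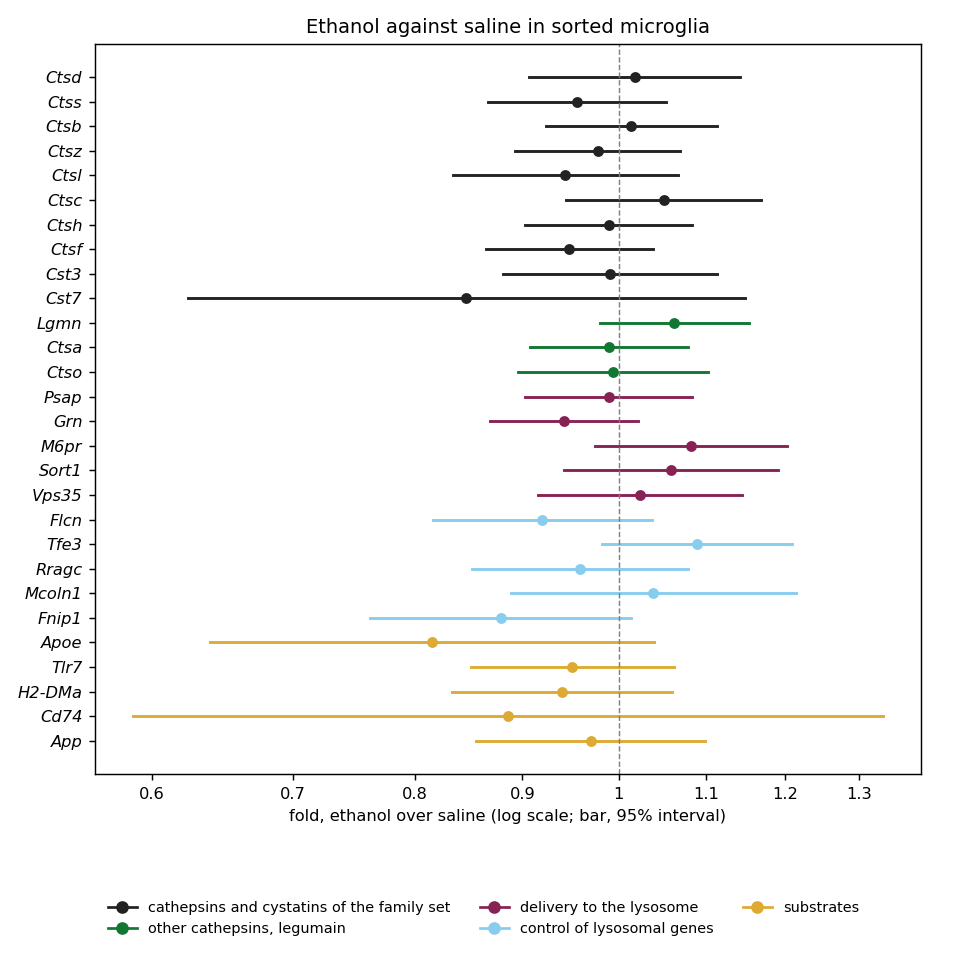
Fold of ethanol over saline (log axis) with its 95% interval from limma for the 10 members and for 18 genes of the related lists (those that averaged 1000 normalized counts or more, at most 5 a list), in colours by list. Every interval drawn contains 1, and those of Cst7, Cd74 and Apoe are the widest drawn. Kng2 and Fnip2, whose intervals lie below 1, are less abundant and are not drawn.

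Some member values may hold reads of a neighbour, or lack reads shared with it, because the library chemistry does not mark strand. How reads on overlapping genes were counted was not examined. In the annotation, exons of Ctsb overlap Fdft1 on the opposite strand, which had a mean of 150 normalized counts, and exons of Ctsz overlap Nelfcd, which had 1136. Overlapping gene models at Ctsd (Gm49369) and Ctsl (Gm47123 and Gm49230) had no counted reads in any library, which does not show that no reads fell on them.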

How the data were processed

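RNA-seq was done on sorted microglia, 4 saline and 4 ethanol libraries, from 500 pg of RNA per library with the SMARTer Ultra Low Input and NexteraXT kits, per the labels' protocols. The submitters' processing notes name GRCm39 and, in no stated order, STAR 2.7.9a, featureCounts 2.0.1 of Subread, Salmon 1.5.2, bcl2fastq 2.19.1, R 4.2.2 and DESeq2. Which annotation was used is not given in the sources used here. The authors deposited 1 table of signal values, by its name the counts of DESeq2 after normalization, in which each library is scaled by its own size factor. Whole reads were recovered for 100% of the non-zero values within 1e-06, which gives depths of 14271351 to 17231301 reads. Without molecular identifiers these reads are not independent molecules.

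The test was limma 3.58.1 (R 4.3.3) on the log2 of value plus 1, with an intensity trend and no covariate, on 14428 genes with a mean of at least 10, two-sided, at a Benjamini-Hochberg threshold of 0.05. Alternatives were pseudocounts of 0.5 and 5, other filters and scalings, edgeR 4.0.16, DESeq2 1.42.0 and voom on recovered reads, numbers in the titles or library names as terms, and leaving out each library. The tests were checked on simulated data. The members were chosen by name and not by their response, but earlier results of these data were known, as they were for the lists. All members were named. Of the other lists, genes with a mean of at least 1000 were named, at most 5 per list. Genes like a member were sought where it spanned at least 0.5 on the log2 scale. Transcript lengths were those of GENCODE on GRCm38, matched by symbol, and promoters those of RefSeq.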

Additional observations from a re-analysis of the deposited data

Results flagged for a closer look

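Ctss in ethanol 4, at 132362 normalized counts, stood apart from the other ethanol libraries, which had 112296 to 115476, by more than a test for a single outlying value allows in a group of 4. It was 1 of 22 groups of values examined in this way, and chance sets apart about 1 in 20. The value lay inside the range of the saline libraries. The log2 fold change of Ctss was -0.07 over all libraries and -0.12 without ethanol 4 (adjusted p = 0.998 by limma). It was also -0.12 without saline 1, and it was -0.017 without saline 3 and -0.041 without ethanol 1.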

How the results depend on the processing

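In all 25 settings, the reported one included, 0 of the 10 members and 0 genes of the related lists passed the adjusted threshold, also at a threshold of 0.1. By limma, an unadjusted p under 0.05 was found for Cst7 without saline 1 and for Ctsc without ethanol 3. Within samples 1 and 2 alone it was found for Ctsc and Ctsl, and within samples 3 and 4 alone for Cst7. The other settings had 0 such members. Over the alternatives 219 of 240 member values kept the sign of the reported log2 fold change, 20 changed it and 1 was 0, that of Cst3 under quantile normalization, where the top gene of every library gets 1 value. Quantile normalization gave -0.0080 for Ctsb and -0.024 for Ctsd, and a factor for the number that each library's name carries gave 0.011 for Cst3. Leaving out 1 library gave ranges that crossed 0 for Ctsb (-0.042 to 0.067), Ctsd (-0.043 to 0.101), Ctsh (-0.048 to 0.021), Ctsz (-0.073 to 0.0025) and Cst3 (-0.063 to 0.068). The ranges were -0.149 to -0.027 for Ctsl, -0.120 to -0.017 for Ctss, 0.029 to 0.145 for Ctsc, -0.089 to -0.055 for Ctsf and -0.44 to -0.054 for Cst7. Samples 1 and 2 alone gave 0.030 for Ctsh and 0.31 for Cst7, and samples 3 and 4 alone gave -0.020 for Ctsb, -0.0030 for Ctsc, -0.019 for Ctsd and 0.0058 for Cst3, both added after seeing the data. The cause was not tested. These reported values lay close to 0, apart from that of Cst7. The order of levels per kilobase kept 8 of 10 places with mean transcript lengths and 7 with the first-numbered transcript, which differ by construction in the lengths used.

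Same-numbered saline and ethanol libraries deviated together only weakly, with correlations over genes of 0.028, 0.064, 0.080 and 0.014 for numbers 1 to 4, so the numbers were not taken as pairs. All correlations within samples 1 and 2, or within samples 3 and 4, were positive, from 0.014 to 0.137. Those between samples 1 and 2 and samples 3 and 4 were all negative, from -0.105 to -0.023. Each gene was centred on its group mean, which forces some negative values where others are positive. The positive and negative values are therefore not separate observations. This division was not tested. With the sample number as a replicate block 0 genes were called, adjusted p-values of the members were 0.987 to 0.991, and the log2 fold change of Cst7 stayed at -0.24. No saline library correlated best with the ethanol library of its own number. Ethanol 2 and ethanol 3 correlated best with their own number, and ethanol 1 and ethanol 4 did not.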
